A study of Homo sapiens with 4 samples.

Results

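The exons described here belong to the RNA modification enzyme genes of a skipped exon table from HEK293T cells, an established human embryonic kidney line. Genes were taken by symbol: the METTL, TRMT, NSUN, FTSJ, PUS, ALKBH, ADAT and YTHD families, together with ADAR, ADARB1, FTO and DKC1. A skipped exon event is a set of 3 exons whose middle exon can be included or skipped, and an event entered where its mean over the 4 libraries was at least 20 reads across splice junctions. This left 420 events on 292 exons of 67 genes, out of 54503 events in the table at that depth. Before the read minimum there were 472 events in 69 genes. The 52 events below it included all events of METTL21B and TRMT12, so these 2 genes are not described further. The members nearest the limit were an event of TRMT2B and an event of ADARB1, each at 20.5 reads, and the nearest event outside was one of METTL21B at 19.0 reads.

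The study compared cells given an antisense oligonucleotide against SNORD89, a small nucleolar RNA of the box C/D class, with cells given no oligonucleotide, in 2 libraries each. The oligonucleotide was a gapmer, a modified strand that directs RNase H to the RNA it pairs with. Cells took it up at 70 nM from a lipid reagent, had fresh medium at 24 hours and gave polyadenylated RNA at 48 hours. The cells without oligonucleotide are labelled as untreated, yet carry the same protocol text, and the labels name no control oligonucleotide, so exposure to an oligonucleotide and loss of SNORD89 cannot be told apart here. The libraries are labelled as biological replicates. The table names its groups only as a first and a second set, and no header ties a set to a treatment. All directions are therefore given as first set against second set, and libraries are named by their place in a set. The level of SNORD89 was not analysed here.

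RNA modification enzymes act after transcription. METTL3 and METTL14 form the methyltransferase that places N6-methyladenosine (m6A) on messenger RNA, FTO and ALKBH5 can remove it, and YTH domain proteins bind it. ADAR and ADARB1 deaminate adenosine to inosine in double-stranded RNA, PUS enzymes and dyskerin (DKC1) turn uridine into pseudouridine, NSUN enzymes make 5-methylcytidine, and TRMT enzymes methylate transfer RNA. Box C/D small nucleolar RNAs guide 2′-O-methylation by fibrillarin, which is not among these genes.

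The inclusion level is the fraction of transcripts that hold the middle exon, taken from junction reads that were first divided by the effective lengths of both forms. Junction reads summed to 38613055 and 39012939 for the first set and to 42868431 and 43929373 for the second. Median depths over the members were 223.5 and 187.5 reads for the first set and 179.5 and 186 for the second. One library, library 2 of the second set, stood apart. It placed 214 of the 420 member events at a level of exactly 1, against 129, 136 and 147 in the other libraries. Of the 113 member events with intermediate inclusion (a mean level between 0.05 and 0.95 and reads in each library), the 2 libraries of the first set differed by more than 0.2 at 5. Those of the second set did so at 16. These are 4.42% and 14.2% of the members, against 7.82% and 22.3% of all events of intermediate inclusion. Library 1 of the second set differed by that much from the first set libraries at 15 and 14 events, and library 2 at 23 and 21. Over all events of intermediate inclusion these shares were 11.1% and 11.5% for library 1, and 19.7% and 20.3% for library 2. There, the libraries of the second set thus differed from each other more often than from either first set library. Calls that fall under a difference of 0.1 without library 2 of the second set are given with and without it. For events that were not called, the difference without it is given only in part. Of 5 genes listed as typical of the line, PAX2 and XRCC5 had skipped exon events and 3 had none, and none of the 6 genes listed for other cell types had one. A gene with no row in such a table says nothing about its expression.

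Sequences of 5 coding exons are shown because the results turn on them: 3 were called as different between the sets, and the exons of TRMT1 and PUSL1 were balanced between inclusion and skipping in all 4 libraries. The letters come from GENCODE release 29 transcripts (GRCh38), matched by gene and exon spacing and read 5′ to 3′ on the transcript strand. Positions are those of the table, in hg19 per the submitters' processing notes. Capitals mark the alternative exon, and the lower case letters are 20 bases of the exon on each side.
METTL8, 92 nt, chr2:172216932-172217023, minus strand: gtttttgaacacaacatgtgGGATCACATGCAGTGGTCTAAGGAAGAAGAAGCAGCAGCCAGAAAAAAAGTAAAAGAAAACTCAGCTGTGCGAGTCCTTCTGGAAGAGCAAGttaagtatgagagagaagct
METTL4, 92 nt, chr18:2544194-2544285, minus strand: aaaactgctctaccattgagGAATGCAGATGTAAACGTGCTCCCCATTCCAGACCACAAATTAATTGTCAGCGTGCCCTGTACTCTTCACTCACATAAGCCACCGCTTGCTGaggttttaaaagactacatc
METTL25, 165 nt, chr12:82780582-82780746, plus strand: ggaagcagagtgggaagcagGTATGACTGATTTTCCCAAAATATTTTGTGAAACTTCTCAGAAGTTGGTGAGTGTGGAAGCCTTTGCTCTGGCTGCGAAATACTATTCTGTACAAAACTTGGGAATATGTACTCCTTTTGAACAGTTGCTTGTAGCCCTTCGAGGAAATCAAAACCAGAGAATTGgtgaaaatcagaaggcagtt
TRMT1, 87 nt, chr19:13220729-13220815, minus strand: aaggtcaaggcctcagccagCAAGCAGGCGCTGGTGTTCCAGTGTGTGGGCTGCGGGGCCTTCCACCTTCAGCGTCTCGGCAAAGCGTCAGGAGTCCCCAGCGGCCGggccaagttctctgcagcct
PUSL1, 58 nt, chr1:1244295-1244352, plus strand: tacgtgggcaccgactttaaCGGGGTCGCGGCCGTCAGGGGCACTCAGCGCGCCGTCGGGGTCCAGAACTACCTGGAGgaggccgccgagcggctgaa

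Removing each exon from its transcript had different outcomes for the reading frame. The METTL25 frame went from 603 to 548 codons before the first stop and that of TRMT1 from 659 to 630, since these exons hold whole codons. The METTL8 frame fell from 407 to 48 codons, that of PUSL1 from 303 to 31 and that of METTL4 from 472 to 419, because these exons shift the frame. The exons of PUSL1 and TRMT1 had GC contents of 74.1% and 67.8%, and that of METTL25 had 39.4%.

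Most exons of these genes were nearly always included. The mean level was above 0.95 at 282 of the 420 events (67.1%), against 66.1% of all tested events, and below 0.05 at 25. Intermediate inclusion was found at 113 events (26.9%) on 86 exons of 44 genes, against 24.4% of all tested events. In 17 genes each tested event had a mean level of 0.95 or more. These included ADAR, ALKBH5, the nucleolar methyltransferase FTSJ3, NSUN5, and TRMT6 and TRMT61A, the subunits of a transfer RNA m1A methyltransferase. Of the 86 intermediate exons, 18 (20.9%) had a length that keeps the reading frame, against 43.4% over the whole table; this is a description and was not tested. The median exon length was 124 nt for the members and 118 nt for all tested exons.

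A total of 18 events on 17 exons of 11 genes were called as different between the sets, with a false discovery rate (FDR) under 0.05 and a difference of at least 0.1 in the authors' deposited table. That is 4.29% of the members, and the same rule called 2.71% of all tested events. Of these, 11 were higher in the first set (2.62%, against 1.34% of all events) and 7 were lower (1.67%, against 1.37%). Among events of intermediate inclusion, 15.9% of members and 11.1% of all events were called. The FDR alone was under 0.05 at 34 members (8.1%, against 5.72%). The levels of the 2 sets did not overlap at 89 members (21.2%), close to the 22.8% of all events, and at 49 of the 113 intermediate members, where the background was 33.5%. The median absolute difference was 0.011 over the members and 0.0114 over all events, and 0.0595 and 0.0548 over events of intermediate inclusion. Whether the shares of the members differ from those of other genes was not tested.

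A quasi-binomial test, whose error is 1 dispersion (2.66) estimated from the scatter within sets and shared by all events, gave no member an adjusted p under 0.05, while it called 16 of all events (0.0294%). The smallest adjusted p among members was 0.107, for NSUN5P2. Unadjusted p-values under 0.05 were found at 30 members (7.14%, against 6.72% of all events), and 14 of the 18 called events were among them. A limma test on log2 ratios of inclusion reads over skipping reads gave 0 members an adjusted p under 0.05. The same was true of 0 of all 54503 tested events, so this 0 is not read as absence of change. The unadjusted limma p was under 0.05 at 22 members (5.24%, against 4.87% of all events). The 18 calls rest on the authors' test, and the quasi-binomial test called none of them after adjustment. Called events were shallow, with a median of 48.9 reads against 203 for members not called, and in 4 of them at least 1 library had under 20 reads. Of the 18, the sets did not overlap at 15.

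**Figure D1:**
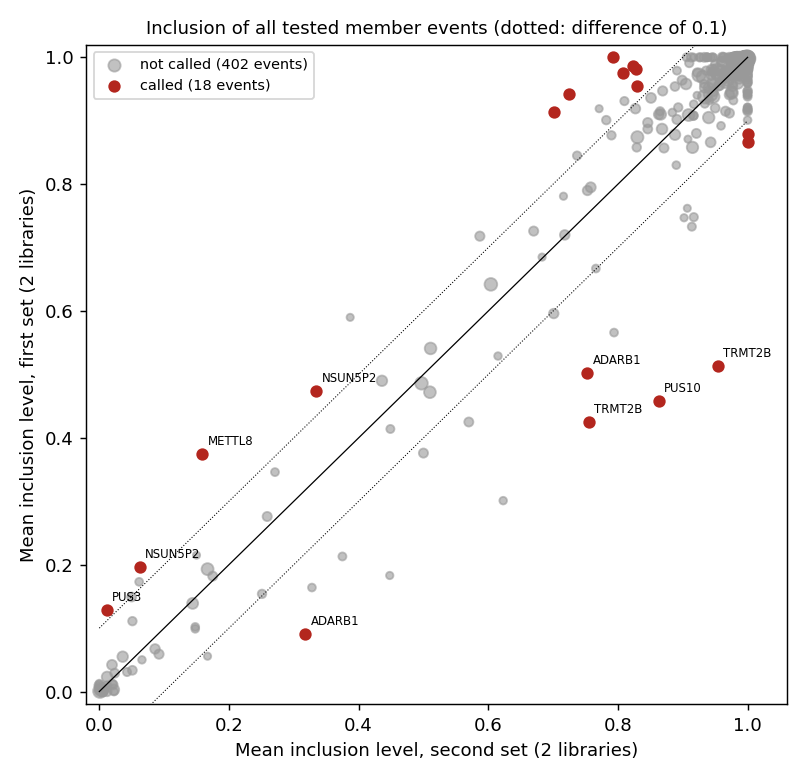
Mean inclusion level of each of the 420 member events in the second set (horizontal axis) and the first set (vertical axis), both from 0 to 1; red points are the 18 called events, grey points the others, and dotted lines mark a difference of 0.1. Most points lie near the top right corner, where 282 events have a mean level above 0.95, and called events below a first set level of 0.8 carry their gene's name.

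ADARB1 was the only deaminase gene with calls, 3 among the 19 events of ADAR, ADARB1, ADAT1 and ADAT2 (15.8%, against 2.71% of all tested events). ADARB1 encodes ADAR2, which edits adenosines in double-stranded RNA, among them sites in glutamate receptor transcripts. A 120 nt coding exon of the gene was included at 0.854 and 0.973 in the first set, against 0.856 and 0.545 in the second. Library 1 of both sets gave nearly the same level, and library 2 of the second set lay far below the rest. The Wilson 95% interval of that library was 0.426 to 0.66. In the authors' deposited table the difference was 0.213 with an FDR of 0.0389, and the quasi-binomial adjusted p was 0.417. Without library 2 of the second set the difference was 0.058, under the threshold, and without library 1 of that set it was 0.368.

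A 166 nt exon of ADARB1 (chr21:46540709-46540874), found in no annotated protein-coding transcript, was mostly skipped in both sets. Its levels were 0.104 and 0.0759 in the first set, against 0.274 and 0.362 in the second, with no overlap. Its difference was -0.228 at an FDR of 0.000246 per the authors' deposited table, and the quasi-binomial adjusted p was 0.299. The difference was -0.184 without library 2 of the second set. A 118 nt exon in the same gene (chr21:46554630-46554747), also in no protein-coding transcript, was at 0.406 and 0.598 in the first set, against 0.699 and 0.807 in the second. For it the authors' deposited table has a difference of -0.251 with an FDR of 0.0461, and the quasi-binomial adjusted p was 0.6. Measured with other flanking exons, the same exon had levels of 0.963, 0.863, 0.963 and 0.805, a difference of 0.028. The called difference was -0.155 without library 1 of the first set. ADAR, whose deepest exon of 183 nt had 590 to 1542 reads a library, stayed at 0.996 or above in each library. ADAT2, a subunit of the transfer RNA adenosine deaminase, was at 0.989 or above.

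Of the 64 events in 12 genes that write, erase or read m6A, 1 was called (1.56%, against 2.71% of all tested events), in METTL4. METTL4 is a methyltransferase of the MT-A70 family with reported activity on U2 snRNA. Its 92 nt exon, shown above, was included at 0.959 and 0.951 in the first set, against 0.925 and 0.736 in the second. The sets did not overlap, but library 1 of the second set was close to the first set. The authors' deposited table lists a difference of 0.124 with an FDR of 0.0331, and the quasi-binomial adjusted p was 0.723. Without library 2 of the second set the difference was 0.03, and without library 1 it was 0.219. In another event on this exon the levels were 1, 0.918, 1 and 1.

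The central m6A enzymes had no called event. A 188 nt exon of METTL3, the catalytic subunit, was at 0.98 and 0.958 in the first set, against 0.971 and 0.891 in the second. Its FDR in the authors' deposited table was 0.0274 with a difference of 0.038. This difference was -0.002 without library 2 of the second set and 0.078 without library 1. Another METTL3 exon, at chr14:21969055, had a larger difference of -0.322, but at an FDR of 0.25 per the authors' deposited table. METTL14, the partner of METTL3, had a 211 nt exon at 0.97 and 0.851 in the first set, against 0.916 and 0.81 in the second. These levels overlapped. The deepest exons of FTO (628 nt), ALKBH5 (156 nt) and YTHDC1 (63 nt), a nuclear reader, were at 0.982 or above in each library. The 1584 nt exon of YTHDF2, a cytoplasmic reader, was at 0.958 to 0.98. A 197 nt exon of YTHDC2, a reader with a helicase domain, was at 0.745 and 0.75 in the first set, against 1 and 0.833 in the second. Its difference of -0.169 missed the threshold, at an FDR of 0.0622 per the authors' deposited table, and was -0.086 without library 1 of the second set.

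The enzymes of 5-methylcytidine had 53 events, of which 2 were called (3.77%, against 2.71% of all tested events), both in NSUN5P2. NSUN5P2 is a pseudogene of NSUN5, whose product methylates ribosomal RNA, and NSUN5P1 is another copy. Reads of such near-identical copies can be assigned to the wrong gene, so these values are uncertain. On the other strand POM121 overlaps 5 other NSUN5P2 events, but neither of the 2 called exons. The 144 nt exon (chr7:72422691-72422834) was included at 0.484 and 0.464 in the first set, against 0.363 and 0.306 in the second. It was the deepest called event, with 435 to 562 reads a library, and its sets did not overlap. In the authors' deposited table the difference was 0.139 with an FDR of 0.0015, and the quasi-binomial p was 8.87e-05 before adjustment and 0.107 after. The difference was 0.111 without library 2 of the second set. A 121 nt exon (chr7:72424898-72425018) was at 0.148 and 0.243 in the first set, against 0.0707 and 0.0542 in the second. For this one the authors' deposited table has a difference of 0.133 with an FDR of 0.00977, and the difference was 0.086 without library 2 of the first set. The junction that skips this exon also counts as inclusion of the 144 nt exon, so the 2 calls share reads. The 144 nt exon of NSUN5P1 was at 0.536, 0.445, 0.572 and 0.299, so its sets overlapped. NSUN5 itself had no event of intermediate inclusion. NSUN2, a methyltransferase of transfer RNA and other RNAs, had a 105 nt coding exon at 0.861 and 0.888 in the first set, against 0.891 and 0.77 in the second, also with overlap.

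Pseudouridine synthase genes had 50 events, of which 3 were called (6.0%, against 2.71% of all tested events), in PUS10, PUS3 and PUS7L. PUS10 modifies transfer RNA, and its 233 nt exon (chr2:61237791-61238023) is annotated in a transcript subject to nonsense-mediated decay. That exon was included at 0.316 and 0.6 in the first set, against 0.778 and 0.947 in the second. The sets did not overlap, though the libraries held only 16 to 37 reads. Its difference was -0.405 at an FDR of 0.00532 per the authors' deposited table, and the quasi-binomial adjusted p was 0.543. The difference was -0.263 without library 1 of the first set. PUS3 acts on transfer RNA too, and its 166 nt exon (chr11:125770574-125770739) is untranslated. It was at 0.114 and 0.143 in the first set, against 0.0233 and 0 in the second. In library 2 of the second set 0 of 57 reads supported inclusion, which allows a level of up to 0.0326 at the Wilson 95% limit. The authors' deposited table has a difference of 0.117 with an FDR of 0.000656 for PUS3, and the quasi-binomial adjusted p was 0.512.

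PUS7L, a relative of PUS7, had a called exon of 926 nt (chr12:44148139-44149064). Its levels were 0.973 and 1 in the first set, against 1 and 0.647 in the second. One library made this difference: the authors' deposited table gives 0.163 with an FDR of 0.0258, and without library 2 of the second set it was -0.014. It was 0.339 without library 1 of that set. In the other tested event on the exon the levels were 0.964, 1, 1 and 1. Deep alternative exons of this group had no call. The 58 nt exon of PUSL1 shown above was at 0.48 and 0.463 in the first set, against 0.508 and 0.513 in the second, from 507 to 758 reads. In PUS1, which modifies transfer RNA in nucleus and mitochondria, a 62 nt exon was at 0.54, 0.542, 0.432 and 0.589 and a 112 nt exon at 0.2, 0.187, 0.149 and 0.185. A 65 nt coding exon of DKC1, the catalytic protein of box H/ACA particles, was at 0.93 to 0.945 in all libraries, from 1064 to 1605 reads. PUS7 had its deepest exon at 0.964 or above.

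**Figure D2:**
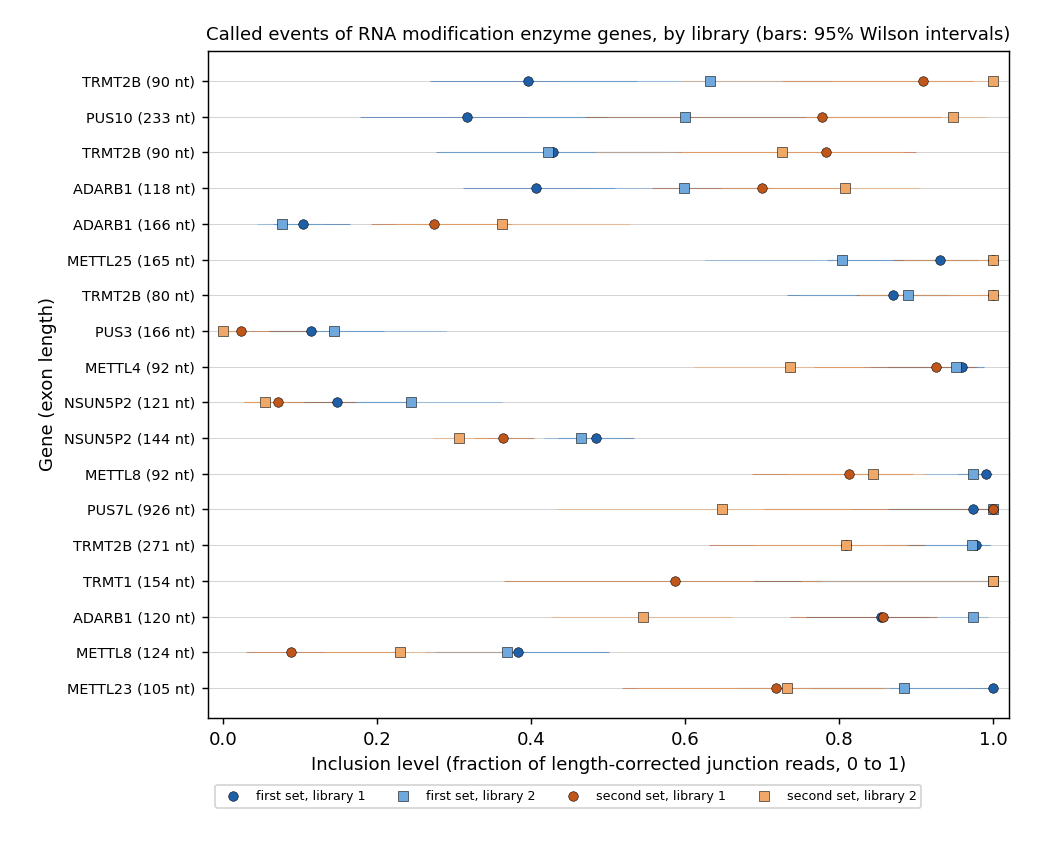
Inclusion level (0 to 1) of the 18 called events in each library, 1 event per line with the gene and exon length; blue marks are the first set, orange marks the second, circles library 1, squares library 2, and bars 95% Wilson intervals, which cover counting error only. The blue and orange marks do not overlap at 15 events, and at ADARB1 (120 nt) and PUS7L library 2 of the second set lies alone on the left.

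The tRNA methyltransferase genes were the largest group, with 149 events in 20 genes. Of these events 7 were called (4.7%, against 2.71% of all tested events), in TRMT2B, METTL8 and TRMT1. TRMT2B makes 5-methyluridine in mitochondrial RNA and had 4 of them. A 90 nt untranslated exon (chrX:100306633-100306722) was called in 2 events that differ in their flanking exons. In the first event it was included at 0.428 and 0.421 in the first set, against 0.783 and 0.726 in the second. In the other it was at 0.395 and 0.632 in the first set, against 0.909 and 1 in the second, whose library 2 had 9 reads. The authors' deposited table gives differences of -0.33 and -0.441 with FDR values of 0.00963 and 0.000665. These events share reads of the same exon and are not 2 separate observations. The quasi-binomial adjusted p was 0.667 and 0.448. A longer form of this exon, of 483 nt, was at 0.571 and 0.561 in the first set, against 0.783 and 0.805 in the second. Its FDR was 0.0555 per the authors' deposited table. This form has the same skipping junction as the 90 nt event with a difference of -0.33. The same 42 skipping reads enter both levels, so the longer form is not a separate observation either.

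Further along TRMT2B a 271 nt exon (chrX:100297031-100297301), partly coding, went the other way in its called event. It was at 0.978 and 0.972 in the first set, against 0.808 in both libraries of the second. The authors' deposited table lists a difference of 0.167 with an FDR of 0.00166, and the quasi-binomial adjusted p was 0.637. An 80 nt form that shares 1 boundary with it (chrX:100297222-100297301) was at 0.869 and 0.889 in the first set, against 1 in both libraries of the second. Its difference in the authors' deposited table was -0.121 with an FDR of 0.0134. In 3 other events on the 271 nt exon the difference was -0.083, -0.008 and -0.054. The first of these was the deepest event on the exon, at a mean of 86.25 reads against 75.5 for the called one. Its levels were 0.912 and 0.921 in the first set, against 1 in both libraries of the second. Its FDR was 0.0235 per the authors' deposited table. The 80 nt form shares the skipping junction of that event, with 9 skipping reads in all. These are therefore not separate observations.

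METTL8 makes 3-methylcytidine in mitochondrial transfer RNA and had 2 called exons, both higher in the first set. The 92 nt exon shown above was included at 0.991 and 0.973 in the first set, against 0.812 and 0.843 in the second. The sets were well apart, and each library had 72 to 186 reads. In the authors' deposited table the difference was 0.154 with an FDR of 6.87e-05, and the quasi-binomial adjusted p was 0.339. Leaving out any 1 library kept the difference between 0.139 and 0.17. It is the only tested event on that exon. A 124 nt untranslated exon (chr2:172271113-172271236) was at 0.382 and 0.368 in the first set, against 0.0879 and 0.229 in the second. The authors' deposited table has a difference of 0.216 with an FDR of 0.0435 there, and the 3 other events on this exon had differences of 0.075, 0.002 and 0.203.

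TRMT1, which dimethylates a guanosine of transfer RNA, had 29 events and 1 call. Its 154 nt exon (chr19:13227001-13227154) was at 1 and 1 in the first set, against 0.586 and 1 in the second. A single library carried the difference of 0.207 (FDR 0.0224 in the authors' deposited table), and without library 1 of the second set it was 0. Without library 2 of that set it was 0.414. The other tested event on this exon was at 1, 0.88, 1 and 1. The 87 nt coding exon shown above was split evenly in each library, at 0.504 and 0.469 in the first set, against 0.475 and 0.519 in the second, from 730 to 954 reads. A 117 nt exon of TRMT2A, a paralogue of TRMT2B that acts on cytosolic transfer RNA, was at 0.932 to 0.954. METTL1, which makes 7-methylguanosine in transfer RNA, had a 185 nt exon at 0.871 and 0.845 in the first set, against 0.926 and 0.904 in the second, and its FDR was 0.0892 per the authors' deposited table. FTSJ1, a 2′-O-methyltransferase of the tRNA anticodon loop, had its deepest exon at 0.993 or above.

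**Figure D3:**
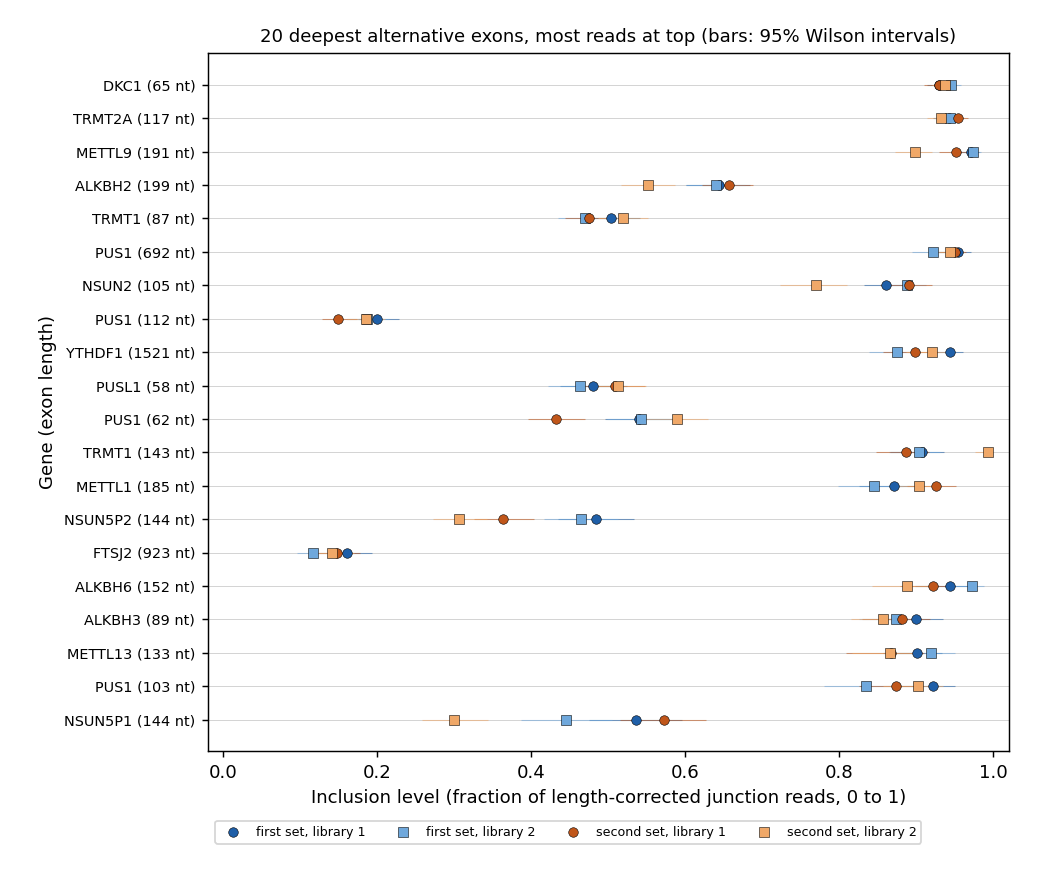
Inclusion level (0 to 1) in each library of the 20 exons with most reads among those of intermediate inclusion, ordered by depth from the top; colours, marks and bars as in the plot of called events. NSUN5P2 (144 nt) is the only called event among them, and TRMT1 (87 nt) and PUSL1 (58 nt) lie near 0.5 in all 4 libraries.

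The remaining families had 2 calls in 85 events, both among the 40 events of the METTL relatives (5.0%, against 2.71% of all tested events). METTL23 and METTL25 belong to the METTL relatives, several of which methylate proteins. A 105 nt exon of METTL23 (chr17:74725772-74725876) was at 1 and 0.884 in the first set, against 0.718 and 0.732 in the second, from 21 to 34 reads. Its difference was 0.217 at an FDR of 0.0266 per the authors' deposited table. The deepest of the 6 events on this exon, at a mean of 201.5 reads, had levels of 0.727, 0.713, 0.685 and 0.752, and the next a difference of -0.105. The 165 nt coding exon of METTL25 shown above was at 0.931 and 0.804 in the first set, against 1 in both libraries of the second. For METTL25 the authors' deposited table has a difference of -0.132 with an FDR of 0.0129, and the difference was -0.069 without library 2 of the first set. The AlkB relatives outside m6A and tRNA had 31 events and no call, among them a 199 nt coding exon of the DNA repair enzyme ALKBH2 at 0.644 and 0.64 in the first set, against 0.656 and 0.551 in the second. The 191 nt exon of METTL9, a histidine methyltransferase of proteins, differed by 0.047 at an FDR of 0.000346 per the authors' deposited table, by 0.02 without library 2 of the second set and by 0.074 without library 1 of that set. Its levels were 0.971 and 0.974 in the first set, against 0.952 and 0.898 in the second. A 152 nt coding exon of ALKBH6 was at 0.944 and 0.972 in the first set, against 0.922 and 0.888 in the second, without overlap. It differed by 0.053 at an FDR of 0.0374 per the authors' deposited table, and by 0.036 without library 2 of the second set. In the second deepest event on this exon the difference was 0.003. The gene AC002116.1 overlaps the exon on the same strand. An 89 nt coding exon of ALKBH3, an RNA and DNA demethylase, was at 0.9, 0.874, 0.881 and 0.856. FTSJ2 and FTSJ3, which methylate mitochondrial and nucleolar RNA, had no call.

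Other events on a called exon mostly showed smaller differences than the called one. Of the 17 called exons, 10 had more than 1 tested event, and 7 had 1. On the 10 exons there were 19 events that were not called, of which 11 had an absolute difference under 0.05 and 3 one of at least 0.1. For NSUN5P2, the other events on the 144 nt exon had differences of 0.035 and 0.018. The events of an exon differ in which flanking exons, and so which skipping junction, are counted, and they share reads.

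**Figure D4:**
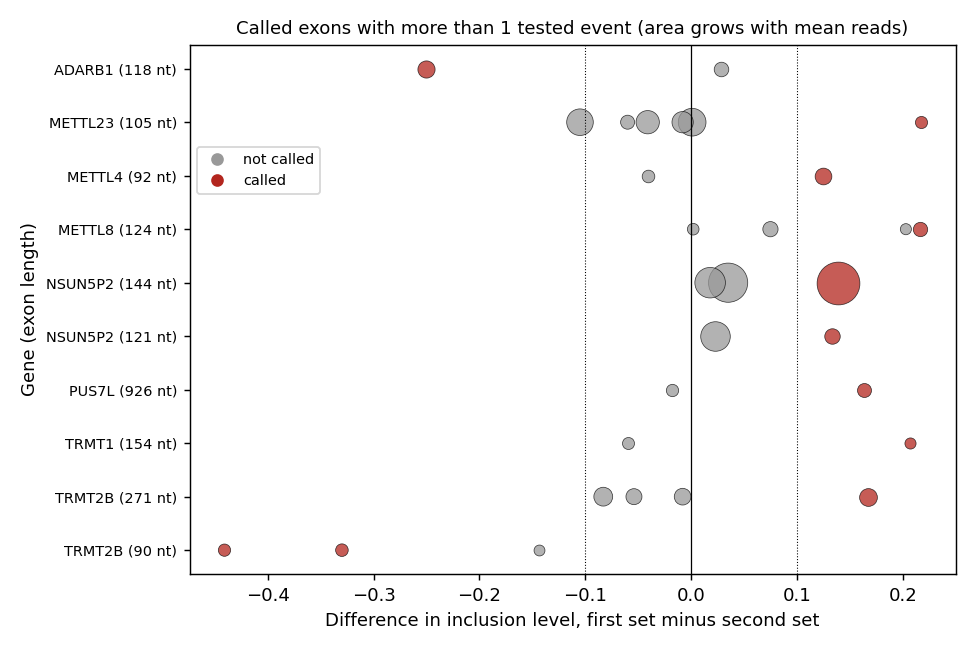
Difference in inclusion level (first set minus second set) of all tested events on the 10 called exons with more than 1 event, 1 exon per line; red marks are called events, grey marks others, area grows with mean reads, and dotted lines mark a difference of 0.1. At METTL23 the called event at 0.217 is the shallowest of 6, and at TRMT2B (271 nt) the 3 other events lie at or below -0.008.

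The junction reads summed over a gene's events, per 1000000 junction reads of the table, describe how much of the gene was read, though 1 read can count in several events. Of the 67 genes, 37 were lower in both second set libraries than in both first set libraries, 9 were higher and 21 overlapped. Over all tested genes 60.9% were lower and 13.8% higher. ADAR was at 161 and 122 such reads in the first set, against 44.3 and 50.3 in the second. FTO was at 47.4 and 32.8 in the first set, against 16 and 16.6 in the second. Among genes with calls, METTL8 was at 42.6 and 29.7 against 14 and 19, while TRMT1 was at 379 and 395 against 396 and 458. In bulk RNA of a single cell line, such shares of junction reads do not give the amount of RNA per cell. Whether this shift in depth bears on the calls was not tested.

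**Figure D5:**
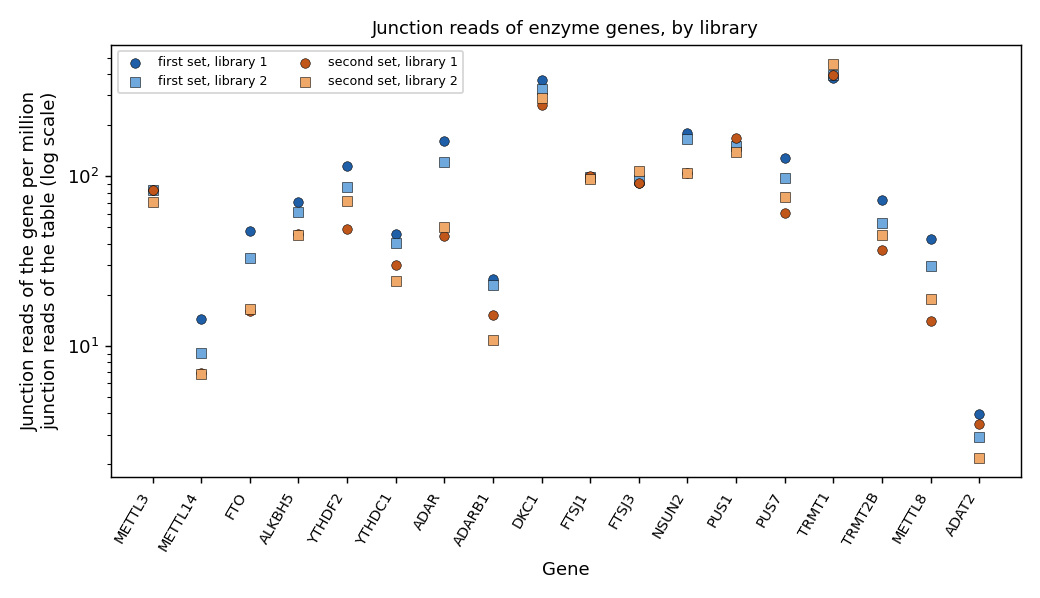
Junction reads of 18 enzyme genes per 1000000 junction reads of the table (log scale) in each library; blue marks are the first set, orange marks the second. The marks of FTO and ADAR are lower in the second set without overlap and those of FTSJ1 lie close together; genes differ in their number of events, so levels are not compared between genes.

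A wider list held 82 gene symbols of RNA modification other than those above, such as subunits of the m6A complex, RPUSD pseudouridine synthases and the Elongator proteins. Some of the symbols are older or newer names of the same gene. From this list 65 genes had 462 tested events. Of these 9 events in 8 genes were called (1.95%, against the 2.71% above), with 6 above and 3 below the second set. The median absolute difference was 0.0068. RPUSD1, a relative of the bacterial pseudouridine synthases, had a 90 nt exon at 0.668 and 0.648 in the first set, against 0.543 and 0.563 in the second. TARBP1, a ribose methyltransferase of transfer RNA, had a 115 nt exon at 0.904 and 0.92 against 0.767 and 0.836. KIAA1429, a scaffold of the m6A complex, rested on 1 library, with a 116 nt exon at 0.993 and 0.989 in the first set, against 0.733 and 1 in the second.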

How the data were processed

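Poly(A) RNA-seq of 2 groups with 2 libraries each was summarised by the authors in 1 table of skipped exon events, which per the file headers has the rMATS layout for junction reads. cutadapt, STAR and the build hg19 are named in the submitters' processing notes; versions, the rMATS settings and the annotation are not given in the sources used here. The table holds read counts and inclusion levels, with both libraries of a set in 1 cell. The difference in inclusion level is a score in the deposited table, the first set mean minus the second, and the p-value and FDR are the authors'. Recomputed levels were within 0.0005 of the deposited ones.

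Events with a mean of at least 20 reads were tested. The quasi-binomial model took its dispersion from the libraries of each set, moderated with squeezeVar of limma 3.58.1 in R 4.3.3 and held at 1 or above. The moderation gave all events the same dispersion (2.66), so an event's own scatter did not enter its test; p-values were adjusted by Benjamini-Hochberg over 54503 events. With 2 libraries a set, p-values measure only the spread between these libraries. limma on the log2 ratio used a pseudocount of 0.5. Both were tested on simulated data, and a count of 0 from limma on the log2 ratio is not read as absence of change. Intervals are Wilson 95% intervals on reads carried through the form lengths and cover counting error only; reads carry no molecular identifiers. Exon classes come from GENCODE release 29: 403 of 420 members matched by exon spacing, and no coordinate was converted. The table carries no strand setting, so reads of overlapping genes cannot be told apart.

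The members, lists and thresholds were chosen with earlier results of these data known. Events are named where they were called, had an adjusted p under 0.05, were among the 20 deepest of intermediate inclusion or the 10 largest differences without overlap at 20 reads or more in each library (1 event per exon), or were the deepest event of a set list of central enzymes. RPUSD1, TARBP1 and KIAA1429 were chosen from the called events of the wider list after their values were seen, as were the genes named for summed junction reads and the other events on called exons. The METTL3 event with a difference of -0.322 was also chosen after its value was seen. The sequence of 1 called coding exon is not reported here.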

Additional observations from a re-analysis of the deposited data

How the results depend on the processing

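The 18 called events became 9 at a mean of at least 50 reads, 9 at an FDR under 0.01, 30 at a difference of at least 0.05 and 9 at one of at least 0.2. Leaving out each library in turn, 15 to 18 of them kept a difference of at least 0.1: 3 were lost without library 2 of the second set (ADARB1 120 nt, METTL4, PUS7L), 2 without library 2 of the first set (METTL25, NSUN5P2 121 nt) and 1 without library 1 of the second set (TRMT1). The 9 called events of the wider list became 5, 2, 24 and 2 under the same 4 settings. The quasi-binomial count of 0 became 16 without library 1 of the second set, where 1754 of all events passed, and was 0 without each other library; the range was 0 to 16, with a lone second set library assumed to vary like the first set. The count of 113 events of intermediate inclusion became 74 between 0.1 and 0.9 and 70 with 1 event per exon, and 117 to 121 with a library left out. Over the called events the median absolute difference, 0.187, ranged from 0.167 to 0.189 with a library left out. Taken from the second deepest event of the exon, over the 6 called events for which that is another event, the median difference in the direction of the call was -0.023; the sign changed for ADARB1 118 nt (0.028), METTL23 (-0.105), METTL4 (-0.041) and PUS7L (-0.018). Taken from the deepest other event of the exon, an alternative chosen after seeing the data, it was 0.001 over 11 called events, and the sign changed for those of ADARB1, METTL4 and PUS7L with the same values, and for TRMT1 154 nt (-0.060) and TRMT2B 271 nt (-0.083). It also changed for PUS7L when libraries were left out in turn (-0.014 to 0.339, the lowest without library 2 of the second set); the cause was not tested. The planned edgeR fits with TMM and with DESeq2 size factors were not run. No paired analysis was possible because the columns of the table carry no replicate numbers. Depth limits the called events, whose median was 48.9 reads.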

Other observations

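Of the 52 member events below the read minimum, 6 had an FDR under 0.05 in the authors' deposited table. The matching share over all events below the minimum was not counted, so this number is not compared with other genes. They lie in TRMT2B, ALKBH6, ADAT1, METTL21A, NSUN5P1 and METTL15 and had means of 6.5 to 15.25 reads. A 116 nt untranslated exon of TRMT2B had 10 and 5 reads in the first set, which gave levels of 0.36 and 0.123, and 12 and 14 reads in the second, all of them for inclusion. A 113 nt exon of ADAT1, a deaminase of transfer RNA, had levels of 0.641 and 0.763 from the 29 and 20 reads of the first set, and of 1 from the 8 and 4 reads of the second. A 61 nt coding exon of ALKBH6 was at 1 in 3 libraries and at 0.356 in library 2 of the second set, from 16 reads. In the authors' deposited table the difference was -0.758 with an FDR of 1e-06 for TRMT2B, and -0.298 with 0.00231 for ADAT1. For ALKBH6 it was 0.322 with 0.0252. With no read minimum, the quasi-binomial test gave no member an adjusted p under 0.05. The reads are too few to settle a direction. All 6 were chosen after their values were seen.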
